A study of Mus musculus with 10 samples.

Results

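The genes described here are the interleukin-6 (IL-6) family ligands Il6, Osm, Lif and Il11, the receptor chains Il6ra, Il6st, Osmr and Lifr, the transcription factor Stat3 and its feedback inhibitor Socs3. They were taken by symbol, and all 10 of 10 were present among the 24358 genes of each library and passed the filter on low counts in every comparison. RNA sequencing covered paired lesional and uninvolved biopsies of full-thickness dorsal skin from 5 C57Bl/6 mice, which makes 10 libraries. Mice 2392 and 2465 were labelled IL-17C+KO, and mice 2237, 2275 and 2296 were labelled IL-17C+. All 5 mice carried the IL-17C transgene (IL-17C+), and the series title names IL-6 as the gene knocked out in the IL-17C+KO mice. The promoter of the transgene, the Il6 allele and the sex of the mice were not given in the sources used here. Mice were taken at 10 or 14 weeks of age, without a record of which mouse was taken when, so age and genotype cannot be told apart. The comparisons of the study were lesional against uninvolved skin, and the IL-17C+KO label against the IL-17C+ label.

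The family takes its unity from Il6st (gp130), the shared signalling chain. IL-6 binds IL-6R (Il6ra) and IL-11 its own receptor chain before they join Il6st, whereas leukaemia inhibitory factor (Lif) signals through Lifr with Il6st, and oncostatin M (Osm) in mice mainly through Osmr with Il6st. The receptors activate Janus kinases, which phosphorylate STAT3, and STAT3 in turn induces Socs3, which binds Il6st and the kinases and shuts the signal down. In skin, keratinocytes respond to oncostatin M and IL-6, and STAT3 activity in keratinocytes is a known feature of psoriasis.

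Libraries held 21056850 to 31072491 counts, and a count of 3, taken as the floor, equalled 0.0965 to 0.142 CPM (counts scaled to equal library size). Keratinocyte markers were present in every library, with a summed level of 13560 to 31943 CPM and none of the 6 at 0. Il17c, the transgene, reached 2347 and 10881 CPM in lesional and 535 to 1901 CPM in uninvolved libraries labelled IL-17C+KO, and 10596 to 12470 CPM in lesional and 1416 to 15175 CPM in uninvolved libraries labelled IL-17C+. The uninvolved library of IL-17C+ mouse 2237 stood apart, with the highest Il17c level of all 10 and the lowest level of all 10 for Il6ra, Il6st, Lifr, Osmr, Socs3 and Stat3. Nothing in the labels says that mice were bred or processed in batches.

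The upstream regions of Il6, Lif, Il11 and Socs3 are shown because their genes had their highest level in a lesional library labelled IL-17C+KO and because a motif search found matches in them. Each line gives the 250 bases before the RefSeq start on the gene's own strand (GRCm38.p6, which is mm10), 5′ to 3′. They lie at chr5:30012864-30013113 (plus strand) for Il6, chr11:4257318-4257567 (plus strand) for Lif, chr7:4778142-4778391 (minus strand) for the second of the RefSeq starts of Il11, the one with a match, and chr11:117969367-117969616 (minus strand) for Socs3. The GENCODE genes span chr11:117966079-117970047 for Socs3 and chr7:4772373-4782859 for Il11. The windows shown for Socs3 and Il11 therefore lie inside those genes and are upstream only of the RefSeq start used. Capitals mark motif matches.
Il6: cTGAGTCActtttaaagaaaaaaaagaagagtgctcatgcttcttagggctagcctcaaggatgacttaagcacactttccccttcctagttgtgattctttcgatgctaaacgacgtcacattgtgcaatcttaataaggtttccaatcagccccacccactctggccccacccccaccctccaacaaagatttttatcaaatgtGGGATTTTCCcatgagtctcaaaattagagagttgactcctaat
Lif: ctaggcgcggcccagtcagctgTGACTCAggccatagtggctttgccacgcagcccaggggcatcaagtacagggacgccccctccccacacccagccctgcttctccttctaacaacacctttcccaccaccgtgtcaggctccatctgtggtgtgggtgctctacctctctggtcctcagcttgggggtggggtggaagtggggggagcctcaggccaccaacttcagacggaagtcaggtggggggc
Il11: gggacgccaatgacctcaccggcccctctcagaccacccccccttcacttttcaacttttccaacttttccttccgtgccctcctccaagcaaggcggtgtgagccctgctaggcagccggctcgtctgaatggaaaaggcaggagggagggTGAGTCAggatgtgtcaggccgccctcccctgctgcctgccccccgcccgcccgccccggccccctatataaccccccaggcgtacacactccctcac
Socs3: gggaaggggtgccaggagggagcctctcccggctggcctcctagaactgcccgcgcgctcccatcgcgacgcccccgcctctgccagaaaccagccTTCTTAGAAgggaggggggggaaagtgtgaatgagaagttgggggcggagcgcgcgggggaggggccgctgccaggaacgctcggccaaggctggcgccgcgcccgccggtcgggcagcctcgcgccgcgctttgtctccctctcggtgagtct
The Il6 region held the AP-1 motif TGANTCA at positions 2 to 8 of the window and the NF-kB motif, searched as GGGA and TTTCC with any base between them, at positions 207 to 216. The Lif region held TGANTCA at positions 23 to 29 and that of Il11 at positions 153 to 159. The Socs3 region held the STAT motif TTCNNNGAA at positions 97 to 105. Both strands were searched, in windows that run on to 50 bases past the start. Of 32851 such RefSeq windows, 8.298% held TTCNNNGAA, 7.808% TGANTCA and 0.411% the NF-kB motif. Windows were found for 9 of the 10 genes, Osm being the one without. The other match was TGATTCA at positions 254 to 260 of the window of Osmr, past its start, and the stricter STAT motif TTCCNGGAA, held by 1.148% of windows, was in no window of these genes. The windows of Socs3, Osmr and Lifr lay inside their GENCODE genes, so the bases before those gene starts were not searched. A match is a description of the letters and not of binding.

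Il6 was measured first, since it is the gene named as knocked out, and its counts were higher, not lower, under the IL-17C+KO label. Il6 lies at chr5:30013114-30019981 on the plus strand. Lesional libraries labelled IL-17C+KO held 11.9 CPM (315 counts) in mouse 2392 and 13.4 CPM (300 counts) in mouse 2465, against 0.783, 0.700 and 2.71 CPM (26, 18 and 69 counts) in IL-17C+ mice 2237, 2275 and 2296. Uninvolved libraries labelled IL-17C+KO held 3.17 and 2.11 CPM (71 and 55 counts), against 0.371, 0.159 and 0.296 CPM (9, 4 and 6 counts) in uninvolved IL-17C+ libraries. The groups did not overlap in either kind of skin, and the uninvolved libraries labelled IL-17C+KO stood within or above the range of the lesional IL-17C+ libraries.

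The IL-17C+KO over IL-17C+ ratio of summed Il6 counts, scaled to library size, was 9.39 in lesional skin (95% exact counting interval 7.67 to 11.6) and 9.55 in uninvolved skin (5.87 to 16.4). Counting intervals here and below cover counting error only, not the spread between mice. The fitted log2 difference was 3.21 ± 0.64 (SE) in lesional and 3.25 ± 0.55 in uninvolved skin, 2 mice against 3. Neither passed edgeR's quasi-likelihood test over all genes (Benjamini-Hochberg adjusted p = 0.55 and 0.85), although Il6 had rank 3 of 15568 genes by p in uninvolved skin. Without mouse 2275 the uninvolved difference passed (edgeR, adjusted p = 0.0443), in a fit where 241 of 15367 genes passed. Counts per whole gene cannot show which exons were read. The ratio of the deposited FPKM to the CPM of Il6 was 0.906 to 1.04 in IL-17C+KO and 0.938 to 1.20 in IL-17C+ libraries. It cannot show the exons either, since FPKM is also a value per whole gene. Whether reads of a disrupted Il6 allele were counted, or whether the genotype labels were exchanged, was not tested and cannot be told from these counts. An exchange would turn the sign of every genotype difference given below. The groups are called by their labels, as the libraries labelled IL-17C+KO.

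**Figure D1:**
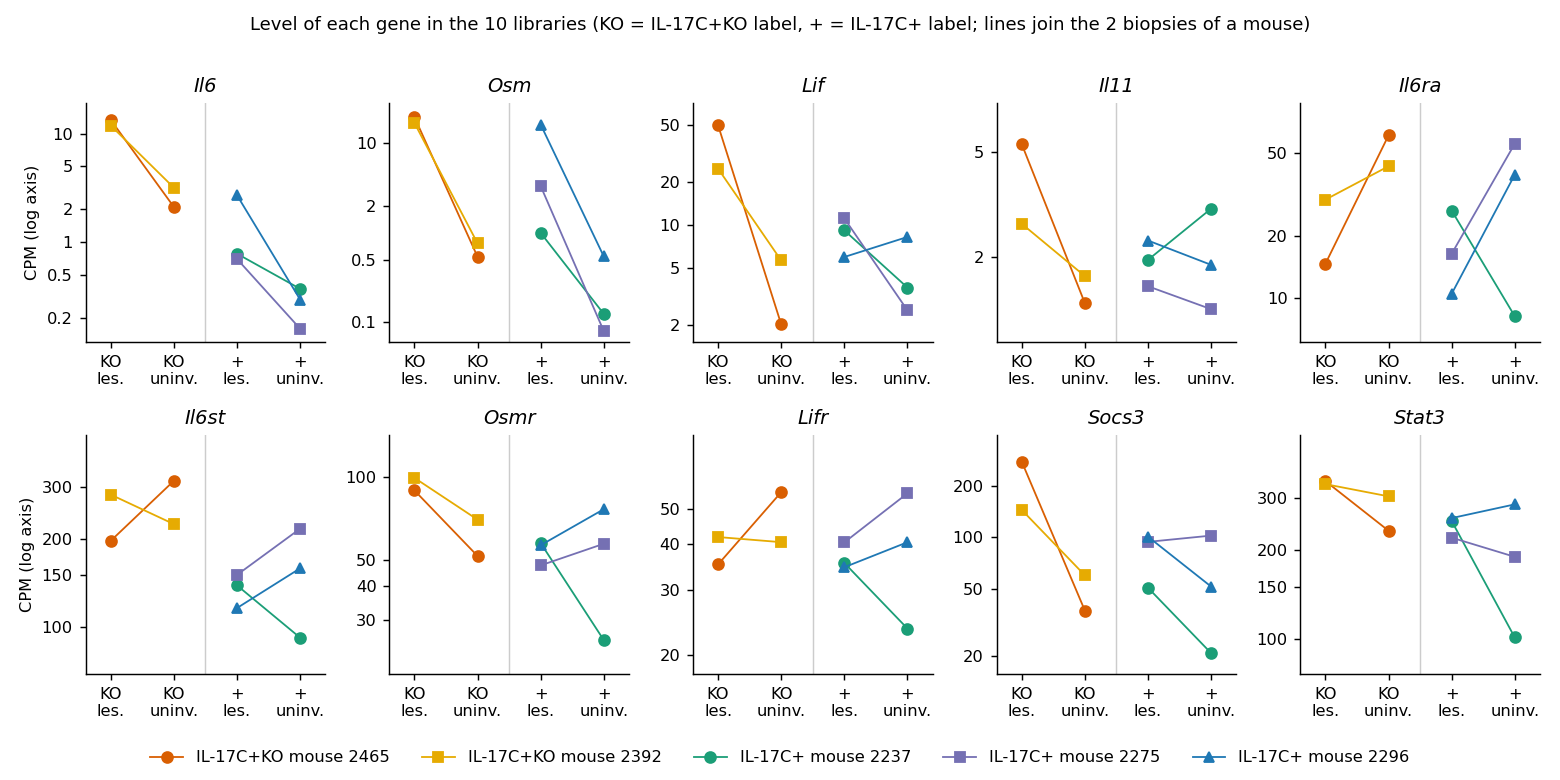
Level of the 10 genes in CPM (log axis) in each library, with lines that join the lesional and uninvolved biopsies of a mouse; KO stands for the IL-17C+KO label and + for IL-17C+. Il6 in the 2 lesional IL-17C+KO libraries (11.9 and 13.4 CPM) stands above the 3 lesional IL-17C+ libraries (0.700 to 2.71 CPM), and the uninvolved IL-17C+ library of mouse 2237 is the lowest point for all 6 of the receptor, Socs3 and Stat3 panels.

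Lesional skin was compared with uninvolved skin within each mouse, and Osm, a cytokine made mainly by neutrophils, macrophages and T cells, was the one family gene that rose past the threshold. Across all 5 mice, 1 of the 10 genes had an adjusted p under 0.05 and a higher level in lesional skin, against 0.0435% of the 16083 genes tested (7 genes). Unadjusted p was under 0.05, with a higher lesional level, for Osm, Il6, Lif and Socs3, that is 4 of 10 against 10.1% of all genes. A higher lesional level in each of the 5 mice was found for Osm and Il6, 2 of 10 against 9.12% of all genes. Within the genotypes no family gene passed, with 0.0124% of all genes called in IL-17C+KO mice and 0% in IL-17C+ mice. There the genes with an unadjusted p under 0.05 and a higher lesional level were 5 of 10 in IL-17C+KO mice (these 4 and Il11), against 6.16% of all genes, and 2 of 10 in IL-17C+ mice (Osm and Il6), against 3.54%. In bulk skin a higher level can come from more cells of a type or from more RNA per cell, and these cannot be told apart.

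Osm lies at chr11:4236420-4241026 on the plus strand. It had 16.7 and 19.5 CPM (444 and 437 counts) in lesional libraries labelled IL-17C+KO of mice 2392 and 2465, against 0.760 and 0.537 CPM (17 and 14 counts) in their uninvolved libraries. In the IL-17C+ mice 2237, 2275 and 2296 it had 0.993, 3.31 and 16.0 CPM (33, 85 and 409 counts) in lesional skin, against 0.124, 0.0797 and 0.542 CPM (3, 2 and 11 counts) in uninvolved skin. Lesional and uninvolved levels did not overlap in either genotype or over all 10 libraries. The lowest lesional level was that of mouse 2237, and the uninvolved levels of mice 2237 and 2275 were at or near the floor of 3 counts.

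Osm rose by a fitted log2 of 4.66 ± 0.36 over the 5 mice (edgeR quasi-likelihood test, adjusted p = 0.026), and it ranked first by p among 16083 genes. The log2 difference within a mouse was 4.32 and 4.99 under the IL-17C+KO label (2392, then 2465) and 2.40, 4.41 and 4.70 under the IL-17C+ label (2237, 2275, then 2296). The ratio of summed, scaled counts was 30.3 in IL-17C+KO mice (95% exact counting interval 21.2 to 44.8) and 29.3 in IL-17C+ mice (17.9 to 51.6). Within 1 genotype Osm did not pass the adjusted threshold, with 4.81 ± 0.59 (adjusted p = 0.16) for IL-17C+KO and 4.49 ± 0.54 (adjusted p = 0.31) for IL-17C+. The call over 5 mice was kept when mouse 2237 was left out and lost when any other mouse was. Leaving out any 1 of mice 2275, 2296, 2392 and 2465 gave an adjusted p of 0.0945 to 0.153 (edgeR), at log2 differences of at least 4.49. Leaving out mouse 2237 gave 0.00692, in a fit where 1249 of 15934 genes passed.

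Most neutrophil markers moved with Osm. Of 7 markers, 6 were higher in lesional skin of every mouse, against 9.12% of all genes. Cxcr2 was lower in lesional skin of mouse 2296 (log2 difference −0.30), and S100a8 was nearly level in mouse 2237 (0.07). The summed level of the 7 markers in the table (Csf3r, Cxcr2, S100a8, S100a9, Mmp8, Clec4d and Retnlg) was 4519 and 6167 CPM in lesional and 761 and 62.3 CPM in uninvolved libraries labelled IL-17C+KO of mice 2392 and 2465. In IL-17C+ mice 2237, 2275 and 2296 the sum was 2206, 2298 and 12680 CPM in lesional and 2094, 74.0 and 2436 CPM in uninvolved skin. S100a8 and S100a9, which keratinocytes of inflamed skin also make, held 79.2 to 99.0% of this sum in each library. Without them, a split made after the values were seen, the other 5 markers summed to 273 and 313 CPM in lesional against 40.7 and 12.9 CPM in uninvolved libraries of mice 2392 and 2465, and to 33.6, 62.2 and 418 CPM in lesional against 20.6, 12.7 and 54.6 CPM in uninvolved libraries of mice 2237, 2275 and 2296. This sum was higher in the lesional biopsy of every mouse, and the 3 libraries with the most Osm were the 3 with the highest value of either sum. None of the 7 markers was at 0 in any library, and the part of neutrophils in the Osm result was not tested. Monocyte and macrophage markers summed to 651 to 1563 CPM in lesional and 583 to 888 CPM in uninvolved IL-17C+KO libraries, and to 436 to 928 and 425 to 670 CPM in lesional and uninvolved IL-17C+ libraries. T cell markers summed to no more than 21.2 CPM in any library.

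**Figure D2:**
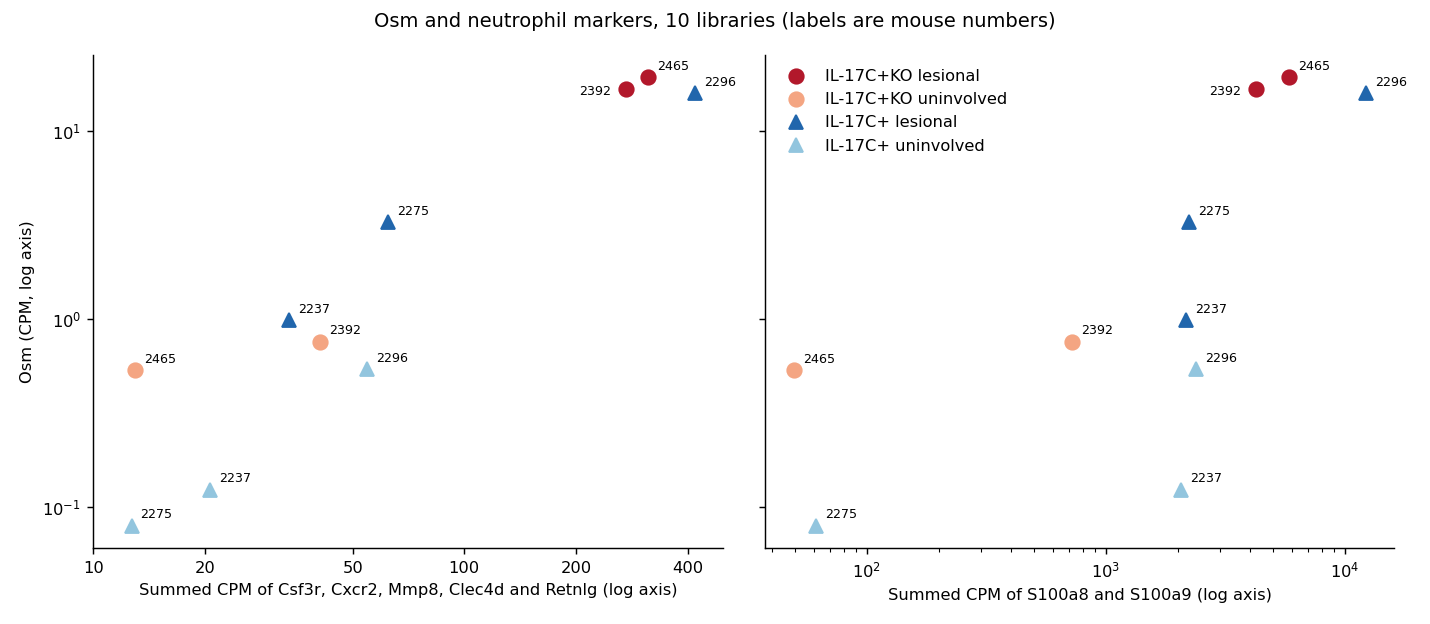
Osm (CPM, log axis) in the 10 libraries against the summed CPM (log axis) of 5 neutrophil markers on the left and of S100a8 and S100a9 on the right, with mouse numbers beside the points. The 3 libraries with 16.0 to 19.5 CPM of Osm lie at 273 to 418 CPM of the 5 markers, above all others, and at 4246 to 12262 CPM of S100a8 and S100a9.

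Among 12840 tested genes with a mean of at least 2 CPM, those whose log2 CPM over the 10 libraries was most like that of Osm were Mmp8 (Pearson r = 0.983), Cxcl3 (0.973), Cotl1 (0.973), Csf3r (0.970) and Trem1 (0.968). Mmp8, a neutrophil collagenase, and Csf3r, the receptor for granulocyte colony-stimulating factor, are among the 7 neutrophil markers, and Trem1 is a receptor of neutrophils and monocytes. For Il6 the most alike were Fes (0.951), Galns (0.946), Selp (0.944), Shc2 (0.934) and Icam1 (0.927), of which Selp and Icam1 encode adhesion molecules of activated endothelium. For Socs3 they were Gpr65 (0.938), Hspd1 (0.937), Tacr1 (0.936), Havcr2 (0.935) and Atic (0.933). These values describe 10 libraries that share 5 mice and the contrast between lesional and uninvolved skin.

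Il6 was higher in lesional skin of each of the 5 mice. By mouse the log2 difference was 1.88 and 2.62 under the IL-17C+KO label (2392, then 2465) and 0.94, 1.71 and 2.89 under the IL-17C+ label (2237, 2275, then 2296). The fitted difference was 2.19 ± 0.35 (adjusted p = 0.066), and 2.28 ± 0.56 in IL-17C+KO and 2.11 ± 0.53 in IL-17C+ mice (adjusted p = 0.23 and 0.62). Over all mice it passed the threshold without mouse 2237 (edgeR, adjusted p = 0.0227), where 1249 of 15934 genes passed, and not without any other mouse. The lesional to uninvolved ratio of summed, scaled counts was 5.20 for the IL-17C+KO and 5.29 for the IL-17C+ label. The difference between the 2 lesional effects was 0.17 ± 0.85 on the log2 scale (adjusted p = 1).

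Lif, which acts on keratinocytes and nerve cells among others, was higher in lesional than in uninvolved skin in both IL-17C+KO mice and in 2 of 3 IL-17C+ mice. It had 24.8 and 49.8 CPM in lesional libraries labelled IL-17C+KO of mice 2392 and 2465, against 5.68 and 2.03 CPM in uninvolved ones. The IL-17C+ mice 2237, 2275 and 2296 had 9.21, 11.2 and 6.00 CPM in lesional skin, against 3.67, 2.55 and 8.28 CPM in uninvolved skin. Mouse 2296 had the lowest lesional level, and its uninvolved level was the highest among uninvolved libraries, so that lesional and uninvolved IL-17C+ groups overlapped. The fitted difference over 5 mice was 1.91 ± 0.67 (adjusted p = 0.17), with 3.35 ± 0.86 (adjusted p = 0.24) for IL-17C+KO and 1.01 ± 0.66 for IL-17C+. The ratio of summed, scaled counts was 10.5 (95% exact counting interval 9.01 to 12.3) in IL-17C+KO and 2.07 (1.81 to 2.36) in IL-17C+ mice.

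Il11, a ligand known from fibroblasts and from fibrosis, had per length the lowest mean of the 4 ligands in lesional skin of both genotypes (2.19 FPKM for IL-17C+KO and 1.07 FPKM for IL-17C+). Under IL-17C+, however, Il6 was lower than Il11 in mice 2237 (0.838 against 1.13 FPKM) and 2275 (0.747 against 0.895 FPKM), and Osm was lower in mouse 2237 (0.553 FPKM). Il11 had 2.68 and 5.35 CPM in lesional against 1.70 and 1.34 CPM in uninvolved libraries labelled IL-17C+KO. IL-17C+ libraries held 1.96, 1.56 and 2.32 CPM in lesional against 3.05, 1.27 and 1.87 CPM in uninvolved skin of mice 2237, 2275 and 2296. The IL-17C+KO groups did not overlap, whereas the IL-17C+ groups did. The fitted difference was 0.51 ± 0.39 over 5 mice (adjusted p = 0.49), 1.33 ± 0.54 for IL-17C+KO and −0.02 ± 0.43 for IL-17C+.

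The 4 receptor chains showed no common direction between lesional and uninvolved skin, and none passed the test. Il6ra had 29.8 and 14.7 CPM in lesional against 43.1 and 60.6 CPM in uninvolved libraries of IL-17C+KO mice 2392 and 2465. In IL-17C+ mice 2237, 2275 and 2296 it had 26.4, 16.4 and 10.5 CPM in lesional against 8.21, 55.3 and 39.3 CPM in uninvolved skin. Il6ra was lower in lesional skin of every mouse but 2237, where the uninvolved library held the lowest Il6ra level of all 10. The fitted difference was −1.01 ± 0.57 (adjusted p = 0.35) over 5 mice. Without mouse 2237 Il6ra fell by 1.56 ± 0.28 on the log2 scale (edgeR, adjusted p = 0.0333), in a fit where 1249 of 15934 genes passed.

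Skeletal muscle markers moved with Il6ra. Their summed level over 7 markers was 3532 and 556 CPM in lesional against 23334 and 37070 CPM in uninvolved libraries of mice 2392 and 2465, and 5104, 3171 and 2035 CPM in lesional against 4889, 26668 and 9655 CPM in uninvolved libraries of mice 2237, 2275 and 2296. The 4 libraries with the most muscle marker RNA were the 4 with the most Il6ra. Il6ra was not alone in this. The uninvolved libraries of mice 2465 and 2275, with 37070 and 26668 CPM of muscle markers, also held the most Lifr (55.4 and 55.0 CPM). The part of the muscle under the skin in the Il6ra and Lifr levels was not tested.

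Il6st, the shared chain, had 283 and 197 CPM in lesional against 224 and 315 CPM in uninvolved libraries labelled IL-17C+KO, and 139, 151 and 116 CPM against 92.1, 216 and 159 CPM in IL-17C+ libraries. Osmr had 99.1 and 89.2 CPM in lesional against 69.8 and 51.5 CPM in uninvolved IL-17C+KO libraries, and 57.4, 47.6 and 56.3 CPM against 25.5, 57.0 and 76.2 CPM in IL-17C+ libraries. Lifr had 41.8 and 35.2 CPM in lesional against 40.5 and 55.4 CPM in uninvolved IL-17C+KO libraries, and 35.6, 40.4 and 34.6 CPM against 23.6, 55.0 and 40.5 CPM in IL-17C+ libraries. Lesional and uninvolved groups overlapped for all 3 chains except for Osmr under the IL-17C+KO label, where both lesional libraries were higher. Fitted differences over 5 mice were −0.15 ± 0.24 for Il6st, 0.35 ± 0.27 for Osmr and −0.14 ± 0.21 for Lifr. Mouse 2237 differed from the other 2 IL-17C+ mice in sign for all 4 chains, with a log2 difference of 1.68 for Il6ra, 0.59 for Il6st, 1.17 for Osmr and 0.59 for Lifr.

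Socs3, the feedback inhibitor, was higher in lesional skin of both IL-17C+KO mice. It had 145 and 278 CPM in lesional against 59.8 and 37.1 CPM in uninvolved libraries of mice 2392 and 2465. IL-17C+ mice 2237, 2275 and 2296 had 50.6, 94.1 and 101 CPM in lesional against 20.9, 102 and 51.4 CPM in uninvolved skin. The groups overlapped for IL-17C+ and did not for IL-17C+KO, and mouse 2275 had about the same level in both biopsies, with a log2 difference of −0.12. The fitted difference was 1.25 ± 0.40 over 5 mice (adjusted p = 0.15), 2.09 ± 0.53 (adjusted p = 0.23) for IL-17C+KO and 0.71 ± 0.41 for IL-17C+.

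Stat3 had 334 and 342 CPM in lesional against 304 and 232 CPM in uninvolved IL-17C+KO libraries, and 251, 220 and 256 CPM against 101, 190 and 285 CPM in IL-17C+ libraries. Lesional levels varied little between mice of 1 genotype, whereas uninvolved levels ran from the 101 CPM of mouse 2237 upwards. The fitted difference over 5 mice was 0.41 ± 0.24 (adjusted p = 0.36). Over the 10 libraries Stat3 varied most closely with Osmr among these genes (r = 0.947 of log2 CPM), which, like the other r values here, describes libraries that share mice and includes the low library of mouse 2237.

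**Figure D3:**
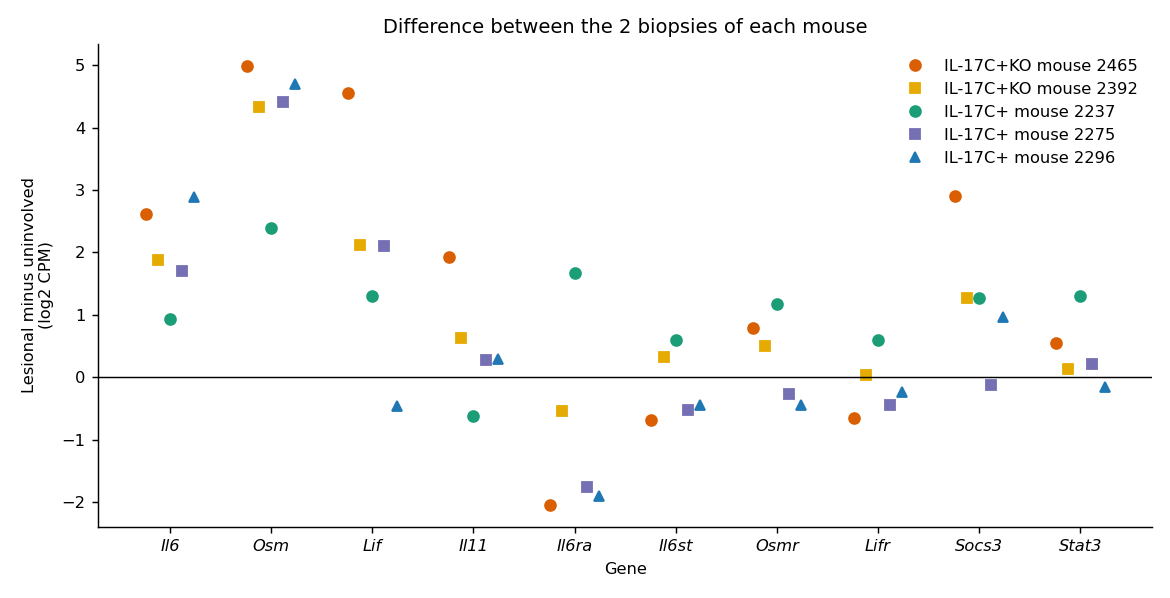
Log2 CPM difference, lesional minus uninvolved, of each mouse for the 10 genes; the black line marks no difference. All 5 mice lie above 0 for Il6 (0.94 to 2.89) and Osm (2.40 to 4.99), and mouse 2237 lies apart from the others for Il6ra (1.68).

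The lesional effects of the 2 genotypes were compared with each other, and no gene of the family differed past the threshold. In this test 0 of 16083 genes passed with edgeR (0%), and 1.17% had an unadjusted p under 0.05 in either direction, among them 0 of the 10 genes. The estimates for the IL-17C+KO minus the IL-17C+ effect were 2.34 ± 1.06 for Lif, 1.38 ± 0.66 for Socs3 and 1.35 ± 0.69 for Il11 (adjusted p = 1 each). For these 3 of 10 genes the per-mouse differences of the genotypes, taken with the prior count of 2, did not overlap. Values were higher in IL-17C+KO mice, against 5.45% of all genes. The margins were small for Socs3 (1.28 in mouse 2392 against 1.27 in mouse 2237) and for Lif (2.11 in mouse 2392 against 2.10 in mouse 2275). For Lif the order of these mice turns round on CPM without the prior count, and the genotypes then overlap. Mouse 2392 had 24.8 CPM in lesional against 5.68 CPM in uninvolved skin, and mouse 2275 had 11.2 against 2.55 CPM. Osm (0.31 ± 0.85) and Il6 (0.17 ± 0.85) had the smallest estimates relative to their error among the ligands.

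Lesional skin of the genotypes was then compared directly, and all 10 genes had a higher mean level under the IL-17C+KO label. Over all genes, 7959 of 15691 had a positive estimate. No gene passed the adjusted threshold in edgeR's test (0% of 15691 genes), so none of these differences is a call, and DESeq2 passed Il6, Lif and Osmr (213 genes in all). Of the 10 genes, 7 had an unadjusted p under 0.05 with a higher level, against 4.77% of all genes, namely Il6, Lif, Il11, Il6st, Osmr, Socs3 and Stat3. For 8 of 10, all but Il6ra and Lifr, the groups did not overlap, against 11.8% of all genes in this direction. The median log2 difference was 0.96 over the 10 genes and 0.01 over all genes tested. Leaving out 1 mouse at a time left 4 to 7 of the 10 with such a p, and without mouse 2392 a total of 8 had a positive difference.

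No test compared the roles with one another, and they are described in turn. Beside the ligand Il6 (3.21 ± 0.64), Lif differed by 2.11 ± 0.40 (adjusted p = 0.55), with 24.8 and 49.8 CPM under the IL-17C+KO label, against 6.00 to 11.2 CPM under IL-17C+. The Lif ratio of summed, scaled counts was 4.11 (95% exact counting interval 3.77 to 4.48). Osm differed by 1.45 ± 1.04 (adjusted p = 0.84), since the lesional library of IL-17C+ mouse 2296 held 16.0 CPM, close to the 16.7 and 19.5 CPM of the IL-17C+KO libraries. Without mouse 2296 the Osm difference was 3.08 and still did not pass (adjusted p at least 0.31 without any 1 mouse). Il11 differed by 1.07 ± 0.41.

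Of the receptors, Osmr differed by 0.84 ± 0.16 (adjusted p = 0.55) and Il6st by 0.85 ± 0.23 (adjusted p = 0.58), and their groups did not overlap. Il6ra (0.35 ± 0.48) and Lifr (0.09 ± 0.17) overlapped between genotypes. Osmr held 89.2 and 99.1 CPM in lesional libraries labelled IL-17C+KO and 47.6 to 57.4 CPM in those labelled IL-17C+. Socs3 differed by 1.40 ± 0.41 and Stat3 by 0.51 ± 0.16 (adjusted p = 0.58 and 0.59). Stat3 held 334 and 342 CPM in IL-17C+KO, against 220 to 256 CPM in IL-17C+ libraries.

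For 4 other cell types every marker had a positive genotype difference in lesional skin, against 7959 of 15691 genes. Among the sums of these cell types only those of endothelium did not overlap. In the same comparison 0 of 6 mast cell, 0 of 7 skeletal muscle and 1 of 5 T cell markers were positive. Endothelial markers summed to 289 and 327 CPM in lesional libraries labelled IL-17C+KO and to 124 to 196 CPM in lesional IL-17C+ libraries, with 5 of 5 markers positive. In uninvolved skin the sums were 265 and 317 CPM in IL-17C+KO, against 65.8 to 209 CPM in IL-17C+ libraries. Fibroblast markers summed to 8324 and 29189 CPM in lesional IL-17C+KO libraries, against 5601 to 12909 CPM in lesional IL-17C+ libraries, and mouse 2465 was the highest of all for them as for Lif, Il11 and Socs3. Of monocyte and macrophage markers 7 of 7 were positive in lesional skin (median log2 difference 1.06), with sums of 1563 and 651 CPM in IL-17C+KO, against 624, 436 and 928 CPM in IL-17C+ libraries. Of adipocyte markers 5 of 5 were positive (median 0.74). Their lesional sums were 412 CPM in mouse 2465 and 3397 CPM in mouse 2392 under IL-17C+KO, against 1074 to 1324 CPM in lesional IL-17C+ libraries. The medians were 0.89 for the endothelial and 1.08 for the fibroblast list. No marker of these lists was at 0 in any library, and the part of these cell types in the genotype differences was not tested.

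In uninvolved skin the genotype difference was seen in few of the genes. No gene passed edgeR's adjusted threshold (0% of 15568 genes, with 3.73% at an unadjusted p under 0.05), and DESeq2 passed Il6 among 11 genes. Il6 was the 1 of 10 with an unadjusted p under 0.05 and a higher level, against 1.91% of all genes, and Il6 and Il6st were the 2 of 10 whose groups did not overlap, against 10.5%. Il6st held 224 and 315 CPM under the IL-17C+KO label, against 92.1, 216 and 159 CPM under IL-17C+, a difference of 0.80 ± 0.41. In this comparison 7 of 7 skeletal muscle markers were positive (median 1.09), against 7608 of 15568 genes. Their sums were 23334 and 37070 CPM in IL-17C+KO, against 4889, 26668 and 9655 CPM in IL-17C+ libraries. The uninvolved library highest in Il6st was also highest in these sums, and the lowest was also lowest. Endothelial, adipocyte, and monocyte and macrophage markers were also all positive. The part of these cell types was not tested. Lif (−0.31 ± 0.67), Il11 (−0.44 ± 0.53) and Socs3 (−0.25 ± 0.63) had negative estimates with overlapping groups, whereas Osm (1.42 ± 0.83) rested on 17 and 14 counts in IL-17C+KO, against 3, 2 and 11 counts in IL-17C+ libraries. Osmr (0.21 ± 0.46), Il6ra (0.61 ± 0.69), Lifr (0.28 ± 0.40) and Stat3 (0.50 ± 0.46) had estimates close to or below their standard error.

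**Figure D4:**
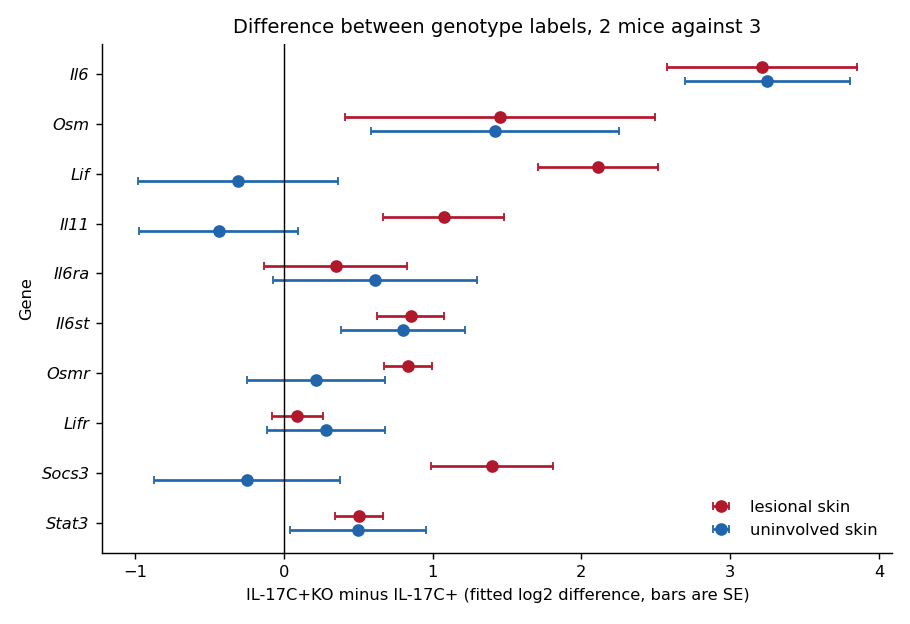
Fitted log2 difference, IL-17C+KO minus IL-17C+, of the 10 genes in lesional and in uninvolved skin, with SE bars; 2 mice against 3. Il6 differs by a similar amount in both kinds of skin (3.21 and 3.25), whereas Lif, Il11 and Socs3 have positive differences in lesional and negative ones in uninvolved skin.

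Levels of different genes were ordered by the deposited FPKM, which is per length. In lesional libraries labelled IL-17C+KO the order was Socs3 (mean 77.0), Stat3 (72.4), Il6st (41.8), Osmr (18.6), Il6 (13.0), Osm (9.74), Lif (8.96), Il6ra (6.48), Lifr (5.54) and Il11 (2.19 FPKM). Neighbours overlapped between Socs3 and Stat3 and in the run from Osm to Lifr. In lesional IL-17C+ libraries the order was Stat3 (51.6), Socs3 (29.3), Il6st (23.6), Osmr (10.6), Il6ra (5.24), Lifr (5.13), Osm (3.42), Lif (2.11), Il6 (1.39) and Il11 (1.07 FPKM). There, Socs3 and Il6st overlapped, as did all neighbours from Il6ra down to Il11.

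In uninvolved libraries labelled IL-17C+KO the FPKM order was Stat3 (50.9), Il6st (41.9), Socs3 (15.6), Il6ra (13.5), Osmr (10.6), Lifr (6.62), Il6 (2.42), Lif (0.795), Il11 (0.752) and Osm (0.309), with Il6 above Lif and Il11 without overlap. In uninvolved IL-17C+ libraries it was Stat3 (38.0), Il6st (25.1), Socs3 (19.6), Osmr (9.67), Il6ra (9.25), Lifr (5.27), Lif (1.06), Il11 (1.06), Il6 (0.274) and Osm (0.123), with Il6 below Lif and Il11 without overlap. Per length, each of the 4 receptor chains stood above each of the 4 ligands on average in both uninvolved groups. In lesional skin labelled IL-17C+KO the means of Il6, Osm and Lif stood above those of Il6ra and Lifr.

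Other genes of the pathway were taken as fixed lists. Over all 5 mice, no tested gene of these lists passed edgeR's adjusted threshold between lesional and uninvolved skin. Among 7 other ligands, Il31 had 0 counts in all 10 libraries, which allows up to 3 counts or 0.0965 to 0.142 CPM in each, and Il27 was below the filter with 1 to 5 counts. Of the 5 ligands tested, 1 had an unadjusted p under 0.05 in each direction, against 10.1% of all genes higher and 11.5% lower, namely Ebi3 (0.66 ± 0.27, adjusted p = 0.22), a subunit of IL-27, and Ctf1, which encodes cardiotrophin-1 (−0.72 ± 0.24, adjusted p = 0.15). Clcf1 (cardiotrophin-like cytokine) was higher in lesional skin of every mouse (1.31 ± 0.62, adjusted p = 0.28).

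Of the 4 other receptor chains, Il31ra had the largest estimate in size among the other pathway genes, below that of Osm. The receptor for the itch cytokine IL-31 had 1.47 and 0.357 CPM (39 and 8 counts) in lesional against 4.34 and 11.4 CPM (97 and 297 counts) in uninvolved libraries labelled IL-17C+KO. In IL-17C+ mice 2237, 2275 and 2296 it had 0.331, 0.272 and 0.0785 CPM (11, 7 and 2 counts) in lesional against 1.65, 10.3 and 5.08 CPM (40, 259 and 103 counts) in uninvolved skin. Every lesional library was below every uninvolved one, the estimate was −3.83 ± 0.74, and it missed the threshold (adjusted p = 0.076). Cntfr, the receptor chain for ciliary neurotrophic factor, had 1.22 ± 0.50 (adjusted p = 0.22). None of the 6 other kinase and STAT genes had an unadjusted p under 0.05, and of 8 other inhibitors Socs1 had 0.73 ± 0.25 (adjusted p = 0.16).

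Of the 13 STAT3 response genes, 11 had a positive lesional estimate, against 7943 of 16083 genes, 5 of them with an unadjusted p under 0.05, against 10.1% of all genes. Their median was 0.56 against −0.01 over all genes. The 3 with the smallest p were Timp1 (3.17 ± 0.59, adjusted p = 0.073), Il4ra (1.04 ± 0.24, adjusted p = 0.097) and Cebpb (0.64 ± 0.18, adjusted p = 0.13), each higher in lesional skin of all 5 mice. Timp1, an inhibitor of matrix metalloproteinases, had 139 and 102 CPM in lesional against 5.45 and 4.34 CPM in uninvolved IL-17C+KO libraries, and 16.7, 20.1 and 45.0 CPM against 8.09, 3.66 and 5.62 CPM in IL-17C+ libraries of mice 2237, 2275 and 2296. Lesional and uninvolved Timp1 levels did not overlap, and the lesional IL-17C+KO libraries stood above the lesional IL-17C+ ones. Such genes also answer to other signals, and fibroblasts express Timp1. Of the 6 fibroblast markers 6 were positive in lesional skin (median 1.91), 5 of them in every mouse, with sums of 8324 and 29189 CPM in lesional against 2682 and 3778 CPM in uninvolved libraries labelled IL-17C+KO. In IL-17C+ libraries the sums were 5601 to 12909 CPM in lesional and 2399 to 4030 CPM in uninvolved skin, and the part of fibroblasts in the response gene levels was not tested.

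Between genotypes in lesional skin, all 13 STAT3 response genes had positive estimates, against 7959 of 15691 genes. An unadjusted p under 0.05 was found for 8 of them, against 4.77% of all genes, and the groups of 7 did not overlap, against 11.8%. Their median was 0.71, against 0.01 over all genes, and none passed the adjusted threshold. The smallest p were those of Il4ra (1.43 ± 0.30), Timp1 (2.18 ± 0.46) and Steap4 (1.15 ± 0.33), with adjusted p = 0.55, 0.55 and 0.58. Il4ra, a receptor chain for IL-4 and IL-13, had 317 and 219 CPM in lesional libraries labelled IL-17C+KO, against 85.4, 83.1 and 135 CPM in lesional IL-17C+ libraries. These groups did not overlap, whereas the uninvolved ones did, at 92.8 and 77.0 CPM in IL-17C+KO, against 46.3, 61.2 and 88.0 CPM in IL-17C+ libraries.

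Of the kinases and other STATs, Jak2 (0.74 ± 0.16, adjusted p = 0.57) and Stat5a (0.72 ± 0.20, adjusted p = 0.58) had an unadjusted p under 0.05 in lesional skin (2 of 6, against 4.77% of all genes), and 4 of 6 did not overlap between genotypes (against 11.8%). None of the 8 other inhibitors had one, Socs1 standing at −0.01 ± 0.29 where Socs3 stood at 1.40 ± 0.41. Clcf1 differed by 1.84 ± 0.53 and Ctf1 by −0.60 ± 0.23 (adjusted p = 0.58 and 0.67). In uninvolved skin none of the 13 STAT3 response genes had an unadjusted p under 0.05, and their median was 0.31. These comparisons share libraries with one another, so the lists are not independent views of the same pattern.

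**Figure D5:**
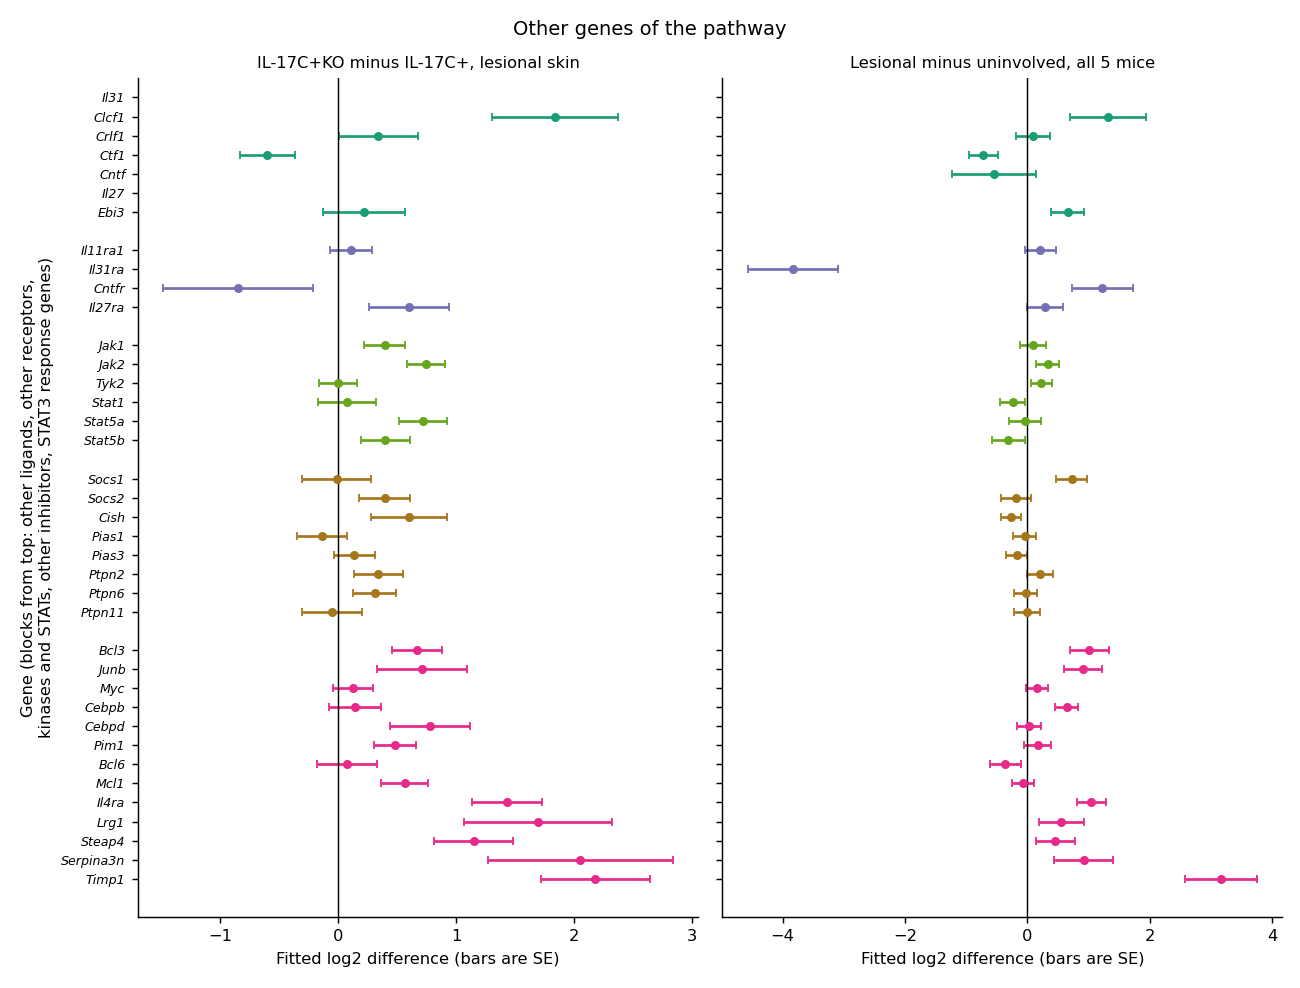
Fitted log2 differences with SE bars for the other pathway genes, grouped by list from top to bottom; left, IL-17C+KO minus IL-17C+ in lesional skin, right, lesional minus uninvolved in all 5 mice, on different horizontal scales. All 13 STAT3 response genes (lowest block) lie above 0 on the left, and Il31ra lies lowest on the right (−3.83); genes below the filter have no point.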

How the data were processed

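RNA was sequenced from 10 full-thickness skin biopsies on an Illumina Genome Analyzer IIx, per the labels' protocols. The authors used cutadapt 1.6, TopHat2 2.0.12, HTSeq and Cufflinks 2.2.1 on mm10, per the submitters' processing notes, without order or settings. The deposited tables hold whole-number counts and FPKM values for 24358 gene symbols, per the file headers. No source used here gives the annotation or strand setting, and reads of overlapping or antisense genes may be shared.

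Counts were tested in R 4.3.3 with edgeR 4.0.16 (filterByExpr, TMM scaling, robust quasi-likelihood F tests, Benjamini-Hochberg adjustment over all genes tested, threshold 0.05). Lesional and uninvolved skin were compared with a term for each mouse (the block), once with 1 lesional effect shared by the 5 mice and once with an effect for each genotype label, which also gave the test between these effects. Each kind of skin was compared between genotypes with 5 libraries from 5 mice. The mouse number in the labels pairs the biopsies, since both came from the same mouse. The correlation of the paired deviations from their group means ran from −0.122 to 0.0338. Library correlations of log CPM ran from 0.837 to 0.986, and no files were identical.

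CPM values are scaled by TMM, log2 CPM of single libraries has a prior count of 2, and errors of fitted differences are standard errors. Depth was 21056850 to 31072491 counts. The alternatives were DESeq2 1.42.0, limma 3.58.1 (voom, or log2 of FPKM + 0.1), other size factors, no filter, no block, all 10 libraries in 1 fit of 4 groups, and leaving out each mouse. Fitted differences were checked on simulated counts with the same spread for all genes and no mouse effects. That check does not give the rate of false or missed calls in these biopsies. Gene coordinates are from GENCODE on GRCm38, upstream sequences from RefSeq on GRCm38.p6. All genes of the family are named, of each pathway list up to 3 genes with the smallest p and others where their pattern was seen in the data, and for Il6, Osm and Socs3 the 5 genes with the highest Pearson r. The genes and lists were chosen with earlier results of these data known. No sample was left out of the results.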

Additional observations from a re-analysis of the deposited data

Results flagged for a closer look

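In Osm, the lesional minus uninvolved log2 difference of IL-17C+ mouse 2237 was 2.40, set apart from the 4 other mice, which lay between 4.32 and 4.99. It was found by a test for a single outlying value among 5 mice, applied to each of the 10 genes, and chance alone marks about 1 in 20 such groups. The differences carry the prior count of 2, which shrinks ratios that rest on few counts. It shrinks most the difference of mouse 2275, with 2 counts in uninvolved skin (3.31 CPM in lesional against 0.0797 CPM in uninvolved skin). Without the prior count the other mice spread more widely, so the flag may rest on it, and the flag was not tried without it. The uninvolved Osm level of this mouse rests on 3 counts, and the neutrophil markers other than S100a8 and S100a9 summed to 33.6 CPM in its lesional and 20.6 CPM in its uninvolved biopsy.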

How the results depend on the processing

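Of 660 values computed under alternatives, 606 kept their direction and their side of the threshold, 18 newly passed it, 4 no longer did and 32 turned sign, in 17 of 60 results. None of the differences whose direction turned passed the test. Depth limits uninvolved Osm and Il6 most, which rest on 2 to 17 and 4 to 71 counts per library.

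DESeq2 passed 4 of the 10 genes between lesional and uninvolved skin over 5 mice (Il6, Osm, Lif and Socs3), the same number within IL-17C+KO mice, 2 within IL-17C+ mice, and between genotypes 3 in lesional and 1 in uninvolved skin, where edgeR passed 1, 0, 0, 0 and 0. Over all genes DESeq2 called 2036 over the 5 mice, 1157 within IL-17C+KO mice, 247 within IL-17C+ mice, 213 between genotypes in lesional and 11 in uninvolved skin, where edgeR called 8, 2, 0, 0 and 0. Without the replicate block 3 of the 10 genes passed over 5 mice (Il6, Osm and Lif) and 769 genes in all. Leaving out 1 mouse gave 0 to 3 of the 10 over 5 mice and 0 to 1 between genotypes in uninvolved skin, and 0 to 1249 and 0 to 241 genes in all. The number of all genes called over 5 mice was 15 without the filter, 4 with voom and 15 with FPKM. Osm passed over 5 mice with each of these and with other size factors (adjusted p = 0.0170 to 0.0419). FPKM moved the median of all genes by 0.12 over 5 mice and 0.16 in IL-17C+KO mice on the log2 scale.

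On the log2 scale, Il11 in IL-17C+ mice was 0.080 with FPKM. The difference between lesional effects was 0.015 for Il6st with FPKM, and without the block 0.034 for Il6st and −0.064 for Il6. Leaving out 1 mouse gave, for lesional minus uninvolved skin in IL-17C+ mice, −0.18 to 0.30 for Il11, −0.48 to 0.075 for Il6st, −0.33 to 0.19 for Lifr and −0.35 to 0.47 for Osmr. In IL-17C+KO mice it gave −0.68 to 0.33 for Il6st and −0.66 to 0.047 for Lifr. For the difference between lesional effects it gave −0.42 to 0.73 for Il6, −1.27 to 0.54 for Il6ra, −0.55 to 0.46 for Il6st, −0.63 to 0.074 for Lifr, −0.21 to 0.66 for Osm and −0.43 to 0.32 for Stat3. Between genotypes it gave −0.24 to 0.75 for Il6ra and −0.033 to 0.18 for Lifr in lesional skin, and −1.24 to 0.30 for Lif, −0.14 to 0.56 for Osmr and −0.67 to 0.44 for Socs3 in uninvolved skin. The cause of these changes was not tested.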

Other observations

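The uninvolved biopsy of IL-17C+ mouse 2237 held 15175 CPM of Il17c, more than the 10596 CPM of its own lesional biopsy, the only mouse in which the uninvolved level was the higher. The same library had the lowest endothelial marker sum of all 10, at 65.8 CPM, and the lowest level of 6 of the 10 family genes. Mast cell markers, which were not part of the pathway, were higher in lesional skin of every mouse for 6 of 6 genes, against 9.12% of all genes, with a median log2 difference of 0.99 and an adjusted p of 0.072 for Kit (edgeR), the stem cell factor receptor that mast cells need.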
